A study of Arabidopsis thaliana with 15 samples.

Results

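The cortex and the endodermis are neighbouring layers of the Arabidopsis thaliana root, and their gene expression was compared here with 3 cortex arrays and 3 endodermis arrays, 6 of the 15 arrays of the series. The other 9 arrays, 3 each from the columella of the root cap, from the epidermis with the lateral root cap and from the stele, serve only to place these layers in the root. The arrays were chosen by their labels alone and not by any measured value. Cortex cells carried the marker line pCOR::GFP, and endodermis cells carried pSCR::GFP, whose sorted population also held the quiescent center, the group of slowly dividing cells that maintains the root stem cells. All plants were of ecotype Columbia. Seedlings grew for 5 days on 1X MS medium and were then moved for 3 h to medium lacking sulfur, so both layers share this treatment, and no comparison with fully supplied roots was made here. The roots were then digested to protoplasts and the GFP-positive cells were sorted by fluorescence, so each population is the cells in which 1 promoter was active. The labels do not say whether replicates are separate batches of plants; the p-values below therefore rest on the spread among arrays, which may be technical. In a sorted population, fewer cells of a type and less RNA per cell cannot be told apart.

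Both layers form the ground tissue and arise when the daughter of 1 stem cell divides lengthwise. The transcription factor SHORT-ROOT moves out of the stele, the central cylinder, into the adjoining layer, where it acts with SCARECROW to drive this division and endodermal identity. Their partners include the zinc finger factors JACKDAW (JKD) and BLUEJAY (BLJ). The endodermis then builds the Casparian strip, a lignin band that seals the space between cells. Peroxidases and dirigent proteins take part in making it, and the receptor kinase SGN3 watches over its completeness. The cortex, which lies outside it, is a layer of large vacuolated cells.

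Values are the deposited signals, a measure of RNA abundance for each probe set on a linear scale with no unit. A difference is the cortex mean minus the endodermis mean on the log2(signal + 16) scale, given with its standard error, and it understates the change of dim probe sets. Differences were tested with limma over 14168 probe sets, and a gene was called higher or lower in the cortex at a Benjamini-Hochberg adjusted p under 0.05 and a difference of at least 1 in size. A gene was counted as not separated where the 95% confidence interval of its difference lay within 1 log2 unit of 0 on both sides. Array medians were 46.1 to 49.5 in the cortex and 57.4 to 60.8 in the endodermis. Over the tested probe sets (genes are not replicates), cortex arrays correlated with each other at r = 0.970 to 0.977 and arrays of different layers at 0.771 to 0.853. Endodermis replicate 2 stood apart from its own group, at 0.938 to 0.943 with the other endodermis arrays, which correlated with each other at 0.984. The ratio of the 3' to the 5' actin probe sets, a sign of RNA quality, was 13.4 to 17.7 on the cortex arrays and 6.56, 43.0 and 7.15 on the endodermis arrays, with 43.0 on replicate 2. On the same 14168 probe sets without that array, 1263 were called higher and 1872 lower in the cortex, against 1356 and 2037 with it; the second count was 1467 when the filter was applied anew to the 5 arrays.

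The labels were first set against genes known to mark each layer. AT1G62510, a cortex marker from a family of lipid transfer and protease inhibitor-like proteins, had a signal of 2183, 1541 and 2229.9 on the cortex arrays, against 218, 123 and 179 on the endodermis arrays. The groups were far apart, with a difference of 3.41 ± 0.25 (limma, adjusted p = 1.2e-06) and a signal of only 1.44 to 13.7 on the 9 arrays of the other populations. SGN3, listed on the array as GSO1, had 1124, 1421 and 1367 on the cortex arrays, against 3449, 3223 and 3942 on the endodermis arrays. All endodermis arrays were above all cortex arrays, and the difference was -1.43 ± 0.18 (limma, adjusted p = 0.000103), yet the cortex signal still lay above the 18.5 to 487 of the other 9 arrays. The SGN3 call was lost when the spread was estimated over all 15 arrays (adjusted p = 0.194 with limma, 0.156 with quantile normalization as well). It was kept in the 15-array fit without epidermis replicate 2 and stele replicate 1, in both scalings.

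Of 7 listed cortex markers, 5 had a named probe set and 4 could be tested, of which 3 were higher in the cortex, against 8.41% of the 7657 named genes. AED3 (AT1G09750), an aspartyl protease, averaged 921 ± 194 in the cortex and 159 ± 35.2 in the endodermis (SD, n = 3 each), a difference of 2.42 ± 0.23. The nitrate transporter gene NPF6.4 (AT3G21670) averaged 461 ± 111 in the cortex and 96.8 ± 11.6 in the endodermis (SD, n = 3 each), a difference of 2.06 ± 0.23. JKD, the remaining marker, restricts SHORT-ROOT movement and is known to be active in both layers early on. It had 149, 142 and 104 on the cortex arrays, against 101, 226 and 128 on the endodermis arrays, so the groups overlapped, and its difference of -0.12 had a 95% interval of -0.74 to 0.50. It counts among the not-separated genes, which were 46.4% of all named genes.

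All 10 endodermis markers that could be tested, of 26 listed, were lower in the cortex, against 14.4% of named genes, with a median difference of -4.42 where the median over all named genes was -0.13. Their summed signal was 2762 to 3519.5 on the cortex arrays and 40448 to 48035 on the endodermis arrays. A gene that passed the signal filter through the endodermis alone had to be lower in the cortex. AT1G44970, AT1G14580 and AT5G41920 of this list lay below the cortex array medians of 46.1 to 49.5, so the count is a description. Among the regulators, the BLJ gene (AT1G14580) had 24.3, 40.2 and 20.8 on the cortex arrays, against 209, 241 and 293 on the endodermis arrays. Its difference was -2.58 ± 0.25 with no overlap, while SCL23 (AT5G41920), a GRAS-family factor that acts beside SHORT-ROOT and SCARECROW, differed by -1.76 ± 0.23 and EN7 (AT4G28100) by -1.51 ± 0.27. The peroxidase and dirigent genes of the list differed by -3.01 to -6.83, and the call of AT4G11290, a peroxidase at the lower end, was lost when all 15 arrays set the spread. That call was kept in the 15-array fit without epidermis replicate 2 and stele replicate 1 (limma, adjusted p = 1.2e-08).

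Markers of the other cells a sort could hold were few. For the quiescent center, which the pSCR::GFP population includes, AGL42 had 22.9, 23.5 and 42.2 on the cortex arrays, against 49.0, 35.3 and 50.2 on the endodermis arrays. These values overlapped and AGL42 passed neither test, with a difference of -0.43 and an interval of -1.02 to 0.15. BABY BOOM (BBM), a stem cell factor, was dim, at 10.7, 6.72 and 2.83 on the cortex arrays, against 38.3, 102 and 53.3 on the endodermis arrays; it was called lower in the cortex at -1.76 ± 0.32, with the call lost with a pseudocount of 64 and when all 15 arrays set the spread. Both testable stele markers were lower in the cortex, against 14.4% of named genes. LHW, a factor required for vascular cell divisions, had 63.8, 141 and 115 on the cortex arrays, against 363, 699 and 488 on the endodermis arrays, and PHV, a homeodomain factor of xylem patterning, averaged 7.40 ± 8.18 in the cortex and 71.1 ± 25.0 in the endodermis (SD, n = 3 each). The layers did not overlap in either gene, with differences of -2.13 ± 0.30 and -1.91 ± 0.32. A probe set that passed the signal filter through 1 layer alone had to differ, and PHV and BBM were dim on all cortex arrays. Their lack of overlap is therefore a description. The signal of LHW in the stele was 295, 995 and 1357 and that of PHV was 6.46, 383 and 552, with the low values on stele replicate 1. Neither gene was limited to the stele. In the columella LHW had 169, 264 and 249 and PHV had 150, 121 and 160. In the epidermis LHW had 365, 936 and 198 and PHV had 28.5, 540 and 26.0. The high values were on epidermis replicate 2, which correlated with the other epidermis arrays at only 0.811 to 0.815, so the epidermis values are doubtful. BBM ranged from 4.01 to 297 on the 9 arrays of the other populations, with the highest value on epidermis replicate 2. The part of stele cells in the endodermis sort was not tested. Endodermis replicate 2, the array with the high actin ratio, had the highest endodermis value of BBM, LHW and PHV, with 98.6 for PHV. Without it, on the same probe sets, their differences were -1.45, -1.89 and -1.69 and all were still called. The PHV call was lost with a pseudocount of 64 and when all 15 arrays set the spread. Both PHV and BBM kept their calls in the 15-array fit without epidermis replicate 2 and stele replicate 1. The root hair expansin genes EXPA7 and EXPA18 differed by 0.50 and 0.13 and neither was called, and the columella gene AT1G65570, a polygalacturonase, differed by -0.57 with no call. Of 3 genes of the protoplasting and wounding response, the zinc finger factor STZ was called higher in the cortex at 1.03 ± 0.23, WRKY53 differed by 0.69 and CML38 by -0.19. Over all named genes 8.41% were higher in the cortex. STZ had 2248, 2187 and 2015 on the cortex arrays, against 968, 786 and 1477 on the endodermis arrays, and its call was lost under several settings, among them quantile normalization (0.97) and without endodermis replicate 1 (0.98) or 2 (0.84).

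The layers differed in 3393 probe sets, 23.9% of those tested. In the cortex 1356 probe sets were higher (9.57%) and 2037 were lower (14.4%). Differences of at least 4-fold numbered 395 higher and 557 lower, and those of at least 16-fold numbered 31 higher and 72 lower in the cortex. A further 6529 probe sets (46.1%) were not separated, and 4246 (30.0%) were neither called nor bounded by these arrays. Groups did not overlap in 7295 probe sets (51.5%). Of the 7657 named genes, 644 were higher (8.41%) and 1105 lower (14.4%) in the cortex, 22.8% in all, and the groups of 50.4% did not overlap. The median difference over all probe sets was -0.11 in the deposited scaling and -0.01 after quantile normalization, and the share of calls that were higher in the cortex was 39.96% and 46.6% in these scalings. Both scalings called 1312 probe sets higher and 1728 lower in the cortex. The plot of all tested probe sets shows calls in both directions from dim to bright probe sets, and differences lower in the cortex extended further, to -7.25, than those higher in the cortex, to 5.13.

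**Figure D1:**
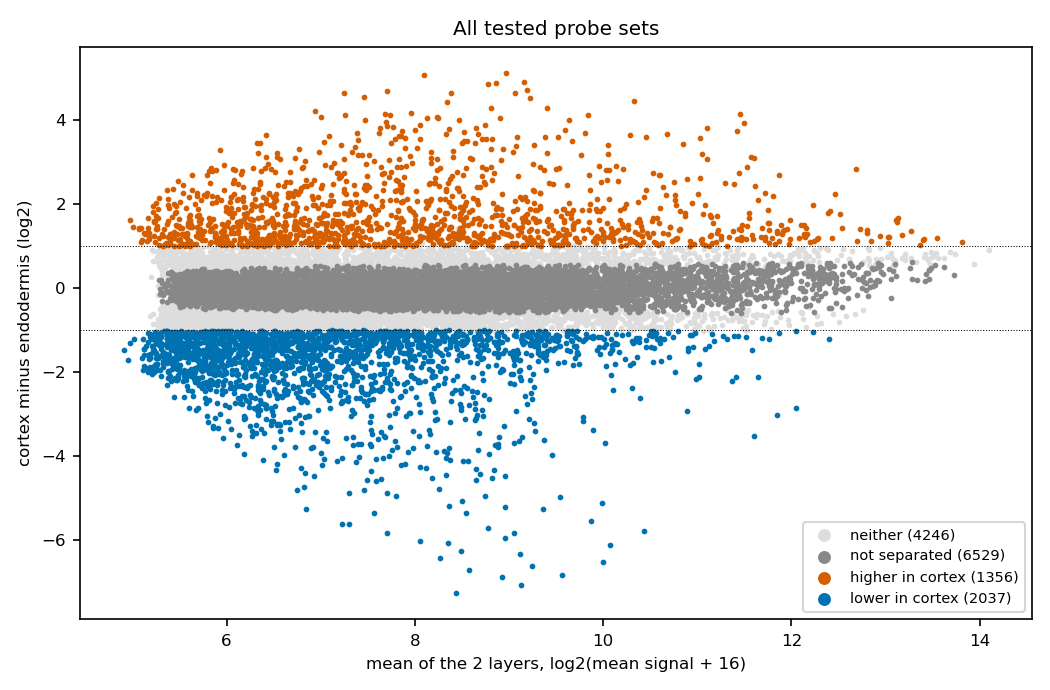
Each point is 1 of 14168 tested probe sets. The horizontal axis is the average, over the cortex and the endodermis, of log2(mean signal + 16). The vertical axis is the difference, cortex minus endodermis, in log2 units. Orange marks the 1356 probe sets higher and blue the 2037 lower in the cortex, dark grey the 6529 not separated, light grey the 4246 that were neither, and dotted lines the threshold of 1 in size.

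The named genes with the largest differences higher in the cortex included enzymes of phenolic metabolism, wall modification and transport. The 12 named genes of largest difference whose groups did not overlap are given here. AT3G13610, annotated with the synonym F6'H1, encodes the hydroxylase that opens the path from feruloyl-CoA to scopoletin and other coumarins, phenolics that roots release to the soil. Its signal was 2425, 3501 and 2853 on the cortex arrays, against 101, 56.1 and 52.3 on the endodermis arrays. It was 35.0-fold higher in the cortex on the scale with 16 added, a difference of 5.13 ± 0.25 (limma, adjusted p = 1.4e-07), and reached 6.09 to 240.1 on the 9 other arrays. UGT84A1, which glucosylates hydroxycinnamic acids, the precursors of lignin and coumarins, had 1257, 1346 and 1028 on the cortex arrays, against 74.8, 42.2 and 59.9 on the endodermis arrays. The layers were again far apart, by 4.05 ± 0.23, and the signal on the other 9 arrays was 1.16 to 40.5. Other genes of the phenylpropanoid list were also higher in the cortex, namely UGT84A4 at 1.53 ± 0.26 and PYK10, a beta-glucosidase of ER bodies, at 1.28 ± 0.16, although PYK10 fell under the threshold with quantile normalization (0.77). UGT72E2, a glucosyltransferase of monolignols, differed by 1.45 ± 0.27 and was chosen for mention after its values were seen.

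Among transporters, AT3G45710, of the NPF family of nitrate and peptide transporters, had 2088, 2459 and 2353 on the cortex arrays, against 95.5, 38.2 and 66.8 on the endodermis arrays. It was 29.1-fold higher in the cortex, at 4.86 ± 0.26, and on the other 9 arrays its signal was 32.7 to 181. Among wall genes, PMEPCRF, a pectin methylesterase that removes methyl groups from pectin, had 2009.8, 2943 and 3009 on the cortex arrays, against 122, 58.2 and 96.0 on the endodermis arrays. It was higher by 4.65 ± 0.26 with no overlap. TBL41, of a family that acetylates wall polysaccharides, was higher by 4.54 ± 0.23, and AT3G18170, a glycosyltransferase, by 4.71 ± 0.23. The class III peroxidase AT5G15180 had 2624, 3292 and 3029 on the cortex arrays, against 161, 45.5 and 70.9 on the endodermis arrays, a difference of 4.93 ± 0.33. The rest of the 12 were AT4G15390, a BAHD acyltransferase, at 4.16, AT4G20820, a berberine bridge enzyme-like oxidase, at 4.14, AT4G23670, of the major latex protein-like family, at 4.13, AT1G55450, a methyltransferase, at 4.09, and the cytochrome P450 CYP71B34 at 4.06. Over these 12 genes the difference ran from 4.05 to 5.13 log2 units.

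The 12 named genes with the largest differences lower in the cortex included peroxidases, dirigent proteins and kinases, of which several are known from Casparian strip formation. AT5G65530, a receptor-like cytoplasmic kinase, had 42.0, 60.4 and 3.98 on the cortex arrays, against 6179.6, 4642 and 7289 on the endodermis arrays. Its groups differed by -7.06 ± 0.41 (limma, adjusted p = 2.8e-07), 134-fold lower in the cortex. AT1G61590, a kinase of the same class that acts in the Casparian strip surveillance pathway downstream of SGN3, had 26.9, 70.0 and 72.9 on the cortex arrays, against 3700.4, 3959.7 and 3964 on the endodermis arrays, a difference of -5.82 ± 0.27. The cortex signals of these kinases lay at the dim end of the arrays, so their folds depend on the pseudocount. The same holds for other genes of these 12. AT1G44970, AT2G22620, AT2G21100, AT1G43020 and AT4G02090 lay below the median of each cortex array, and AT2G39430 lay near it. The dirigent gene AT2G39430, of a family that guides the coupling of phenolic radicals, had 44.4, 48.4 and 44.8 on the cortex arrays, against 4938, 3932 and 6049 on the endodermis arrays. It was lower in the cortex by 79.4-fold, at -6.31 ± 0.21, and stayed at 27.2 to 234 on the other 9 arrays. The dirigent genes AT4G13580 and AT2G21100 differed by -6.12 ± 0.21 and -5.82 ± 0.23. The peroxidase AT1G44970 had 25.5, 37.1 and 4.76 on the cortex arrays, against 4136, 2678 and 4537 on the endodermis arrays. It differed by -6.69 ± 0.33, and AT5G66390 (PEROXIDASE 72), a lignin-forming peroxidase, by -6.83 ± 0.57. Peroxidases oxidise monolignols, so that lignin can polymerise. AT2G22620, of the rhamnogalacturonan lyase family, which cuts pectin backbones, differed by -6.02 ± 0.29. The remaining genes, AT1G30750, AT4G02090, AT1G43020 and AT1G71740, differed by -6.62, -6.26, -6.06 and -5.71, and no role is given for them here. On the 9 other arrays AT1G30750 reached 35.2 to 389 and AT4G02090 9.16 to 114.

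**Figure D2:**
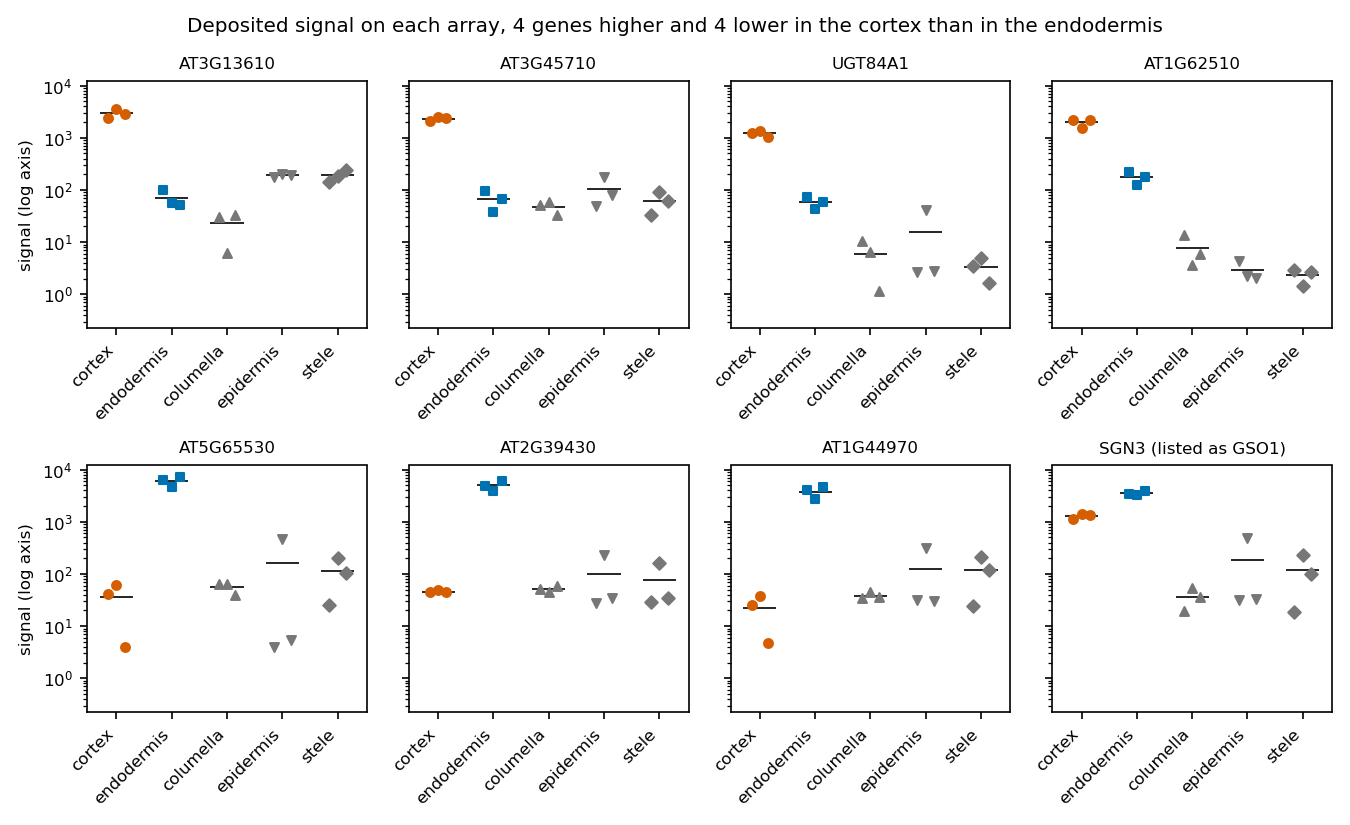
Deposited signal on a log axis for 8 genes in the cortex, the endodermis and the 3 other populations; each symbol is 1 array and the horizontal bar is the mean of 3 arrays. AT3G13610, AT3G45710, UGT84A1 and AT1G62510 are above the endodermis on all cortex arrays, and AT5G65530, AT2G39430, AT1G44970 and SGN3 (GSO1) are below it on all cortex arrays.

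Several families held members on both sides. The peroxidase, dirigent, berberine bridge enzyme-like, major latex protein-like and NPF families were assembled by locus after the values were seen, so their counts are descriptions. Of 31 tested class III peroxidases, 8 were higher and 15 lower in the cortex, 3 were not separated and 5 were neither, against 8.41% of named genes higher and 14.4% lower, and their median was -0.70 against -0.13 over all named genes. The peroxidases spread from -6.83 to 4.93. AT5G64100 had 10764, 9974 and 12849 on the cortex arrays, against 795, 500.4 and 888 on the endodermis arrays, higher in the cortex by 3.95 ± 0.23, and AT2G37130 was higher by 2.89 ± 0.24. AT4G33420 had 42.3, 24.9 and 13.4 on the cortex arrays, against 579.6, 603 and 799 on the endodermis arrays, lower in the cortex, at -4.02 ± 0.27. PRXR1, the one of highest mean among the 3 that were not separated, had 1357, 1637 and 1320.3 on the cortex arrays, against 2555, 1328 and 1791 on the endodermis arrays, a difference of -0.35 with a 95% interval of -0.87 to 0.18, which passed 1 in size without cortex replicate 2 and in the quantile-normalized 15-array fit. Of 7 tested members of the dirigent family, 6 were lower and none higher in the cortex, against 8.41% of named genes higher and 14.4% lower, and AT3G13650 at 0.17 was not separated, with an interval of -0.56 to 0.90 that passed 1 in both 15-array fits and when single arrays were left out.

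UDP-glucosyltransferases attach sugars to hormones and phenolics. Of 36 tested, 15 were higher and 4 lower in the cortex, against 8.41% of named genes higher and 14.4% lower, 10 were not separated and 7 were neither, with a median of 0.53 against -0.13 over all named genes. UGT76E12 had 526, 844 and 734 on the cortex arrays, against 42.9, 41.1 and 30.6 on the endodermis arrays, higher by 3.71 ± 0.24, and UGT71C1 was higher by 2.92 ± 0.38. UGT71C3, a close relative of UGT71C1, had 35.4, 56.5 and 33.2 on the cortex arrays, against 559.7, 473 and 699.7 on the endodermis arrays and was lower, at -3.37 ± 0.24. The groups did not overlap for either of these relatives. UGT74F1, a salicylic acid glucosyltransferase, was lower, at -2.60 ± 0.26, and GT72B1 was not separated, at -0.22 with an interval of -0.82 to 0.37. The GT72B1 interval passed 1 in size with quantile normalization (-0.47, lower end -1.11), without cortex replicate 2 or 3 and in both 15-array fits. The monolignol glucosyltransferases also divided. UGT72E3 had 106, 178 and 121 on the cortex arrays, against 1306, 379 and 1335 on the endodermis arrays, lower in the cortex, at -2.59 ± 0.41, in contrast to UGT72E2 above. CCR2, a cinnamoyl-CoA reductase that commits precursors to monolignols, had 12.1, 29.6 and 25.9 on the cortex arrays, against 906, 969 and 1469 on the endodermis arrays, and was lower, at -4.87 ± 0.26. HCT, a shikimate transferase earlier on the lignin path, was not separated at 0.17 (-0.27 to 0.61), and in the 15-array fit its interval was -0.99 to 1.32. It was -0.34 to 0.67 in that fit without epidermis replicate 2 and stele replicate 1. Of the 8 tested genes of the phenylpropanoid list, 5 were higher and 2 lower in the cortex, against 8.41% of named genes higher and 14.4% lower.

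The NPF family also split, within 1 cluster of neighbouring genes. AT3G45700, the neighbour of AT3G45710 in gene order, had 145, 154 and 101 on the cortex arrays, against 1166, 531 and 842 on the endodermis arrays. It was lower in the cortex, at -2.48 ± 0.29 where AT3G45710 was higher by 4.86; the AT3G45700 call was lost when all 15 arrays set the spread (limma, adjusted p = 0.0996). The AT3G45700 call was kept in that fit without epidermis replicate 2 and stele replicate 1 (limma, adjusted p = 6.8e-05). AT3G45680 was lower, at -1.85 ± 0.32. The glucosinolate transporter GTR2 had 864, 924 and 883 on the cortex arrays, against 60.1, 56.3 and 68.7 on the endodermis arrays, higher by 3.55 ± 0.20, with no overlap. Its relative GTR1 had 2888, 3368 and 3881 on the cortex arrays, against 2478, 3387 and 3516 on the endodermis arrays, a difference of 0.12 with an interval of -0.32 to 0.55, and was not separated, though in the 15-array fit the interval was -1.01 to 1.24. Left without epidermis replicate 2 and stele replicate 1, that fit gave GTR1 an interval of -0.31 to 0.55. Of 8 tested NPF genes, 3 were higher and 2 lower in the cortex, against 8.41% of named genes higher and 14.4% lower.

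Berberine bridge enzyme-like genes, a family of oxidases whose members oxidise oligosaccharides and monolignols, were higher in the cortex in 6 of 7 tested members and lower in none. Over all named genes 8.41% were higher, 14.4% lower and 46.4% not separated, which is the background for each family count that follows. AT2G34810 had 1037, 1611 and 1633 on the cortex arrays, against 108, 80.9 and 129.9 on the endodermis arrays, higher by 3.55 ± 0.25, and AT5G44390 was higher by 2.94 ± 0.35. Of 6 tested major latex protein-like genes, 5 were higher and 1 lower in the cortex. AT3G26450 and AT3G26460 were higher by 3.63 ± 0.28 and 3.23 ± 0.29, while AT5G28010 was lower, at -1.58 ± 0.34. All 3 tested jacalin-type lectins were higher in the cortex, with JAL22 at 2.12 ± 0.25, JAL33 at 1.59 ± 0.26 and JAL34 at 1.37 ± 0.18, although JAL34 fell under the threshold with quantile normalization (0.83). Of 10 tested cytochrome P450 genes, CYP71B34, CYP71B26 (2.76 ± 0.24) and CYP71B6 (2.07 ± 0.19) were higher, CYP84A4 (-1.32 ± 0.27) was lower and 6 were not separated. Of 10 tested glutathione transferases, which conjugate reactive compounds, 3 were higher, GSTU22 by 1.39 ± 0.18, GSTU16 by 1.24 ± 0.24 and GSTL3 by 1.20 ± 0.22, and none was lower in the cortex. The calls of AT5G28010, GSTU16 and GSTL3 were lost with a pseudocount of 64, and that of JAL33 when all 15 arrays set the spread. JAL33 kept its call in the 15-array fit without epidermis replicate 2 and stele replicate 1.

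Wall-loosening genes, expansins and XTH enzymes that cut and rejoin xyloglucan, gave 4 higher and 5 lower in the cortex of 20 tested, against 8.41% of named genes higher and 14.4% lower. XTH18 had 1083, 1158 and 1221 on the cortex arrays, against 219, 305 and 215 on the endodermis arrays, higher by 2.17 ± 0.21, and XTH32 was higher by 1.51 ± 0.25. XTH21 had 66.7, 30.1 and 39.5 on the cortex arrays, against 815, 596 and 486 on the endodermis arrays, lower, at -3.41 ± 0.27, and XTH16 was lower, at -2.90 ± 0.22. XTH19, a close relative of XTH18, was higher by 1.31 ± 0.23. Its call, like those of XTH21 and SBT4.12, was lost when all 15 arrays set the spread. XTH19, XTH21 and SBT4.12 kept their calls in the 15-array fit without epidermis replicate 2 and stele replicate 1. The call of XTH32 was lost with a pseudocount of 64. Of 18 tested subtilases and serine carboxypeptidases, secreted proteases, none was higher, 5 were lower in the cortex and 9 were not separated, against 8.41%, 14.4% and 46.4% of named genes. SCPL45 had 164, 207 and 104 on the cortex arrays, against 1475, 3674 and 3369.6 on the endodermis arrays, lower, at -3.97 ± 0.34; scpl46 was lower, at -3.43 ± 0.37 and SBT4.12 at -3.38 ± 0.26. SCPL49 was not separated, at 0.14 (-0.44 to 0.72). Among the lower members of these lists, EXLA3, EXLB1, scpl35 and scpl46 lay below the median of each cortex array. A gene that passed the signal filter through 1 layer alone had to differ, so both counts are descriptions.

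**Figure D3:**
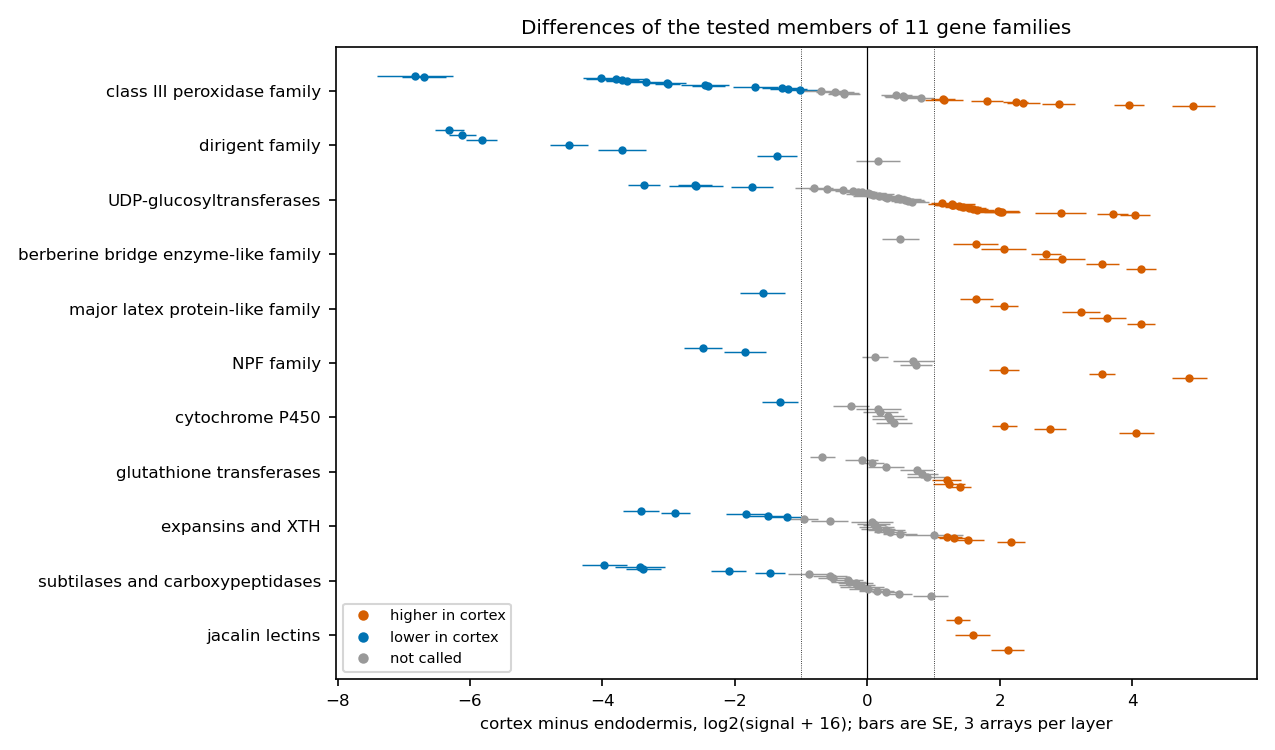
Each point is 1 tested gene of 11 families; the horizontal axis is the difference, cortex minus endodermis, on the log2(signal + 16) scale and the bars are standard errors over 3 arrays per layer. Peroxidases spread on both sides of 0, dirigent genes lie to the left apart from 1, and berberine bridge enzyme-like genes and jacalins lie to the right.

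Sulfur genes were examined because both layers had been kept without sulfur. Of 65 listed, 8 had a named probe set and 7 were tested: 3 were lower in the cortex, 4 were not separated and none was higher, against 14.4%, 46.4% and 8.41% of named genes. BGLU28, a beta-glucosidase of sulfur starvation that can release sulfur from glucosinolates, had 248, 357 and 227 on the cortex arrays, against 3238, 3609 and 4195 on the endodermis arrays. It was lower, at -3.67 ± 0.22, 12.8-fold, with no overlap, and its signal on the other 9 arrays was 13.3 to 2921. CBL, cystathionine beta-lyase of methionine synthesis, averaged 365 ± 33.5 in the cortex and 1128 ± 422 in the endodermis (SD, n = 3 each), a difference of -1.53 ± 0.25. APS3, one of the ATP sulfurylases that activate sulfate, averaged 340.1 ± 54.4 in the cortex and 885 ± 184 in the endodermis (SD, n = 3 each), a difference of -1.33 ± 0.22. Its relative APS4 did not separate the layers, at 0.34 (-0.05 to 0.74), although its 3 cortex values of 3409.5, 3582 and 2865 all lay above the endodermis values of 2795, 2237 and 2734. In the 15-array fit its interval passed 1, at -0.34 to 1.03, and without epidermis replicate 2 and stele replicate 1 it was -0.15 to 0.83. SIR, the sulfite reductase, had 839.5, 1419.9 and 1329 on the cortex arrays, against 870.0, 1511 and 1114 on the endodermis arrays. The groups overlapped, and its difference of 0.04 had an interval of -0.53 to 0.60. UGT74B1, a glucosinolate enzyme, at 0.30, and AT1G04770, at -0.26, were also not separated; the UGT74B1 interval passed 1 in both 15-array fits. Left without epidermis replicate 2 and stele replicate 1, the 15-array fit gave UGT74B1 an interval of -0.15 to 0.76. The direction of the response to sulfur removal in either layer was not measured here.

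Of 37 listed division genes 4 were tested, and 3 were lower in the cortex, against 14.4% of named genes. A gene that passed the signal filter through the endodermis alone had to be lower in the cortex. AUR1 and AUR2 lay below the cortex array medians of 46.1 to 49.5, so this count is a description. AUR2, an Aurora kinase of mitosis, had 14.4, 2.16 and 1.27 on the cortex arrays, against 347, 469 and 308 on the endodermis arrays. It was lower in the cortex, at -4.18 ± 0.28, AUR1 at -1.78 ± 0.30 and PRL, a DNA replication licensing factor, at -2.13 ± 0.30. AUR1 had 27.96, 20.8 and 21.5 on the cortex arrays, against 84.7, 198 and 98.6 on the endodermis arrays, and PRL had 67.7, 29.5 and 48.1 on the cortex arrays, against 194, 389 and 223 on the endodermis arrays. In all 3 genes the highest endodermis value was that of endodermis replicate 2, the array with the actin ratio of 43.0. Without it, on the same probe sets, AUR2, AUR1 and PRL differed by -4.02, -1.45 and -1.84 and were still called. AUR3 was dim and differed by -0.60 without a call. On the 9 arrays of the other populations AUR2 had 205 to 305, AUR1 65.8 to 334 and PRL 191 to 1199. These values all lay above the cortex arrays, so the 3 genes were low in the cortex and not high in the endodermis alone. The quiescent center is part of the endodermis sort and not of the cortex sort, and its part in these values was not tested. For the next lists, 22.8% of named genes were called in either direction and 46.4% were not separated. Of 6 tested WRKY factors none was called and 4 were not separated, and of 5 bHLH factors bHLH115, an iron-response factor, was higher in the cortex at 1.26 ± 0.20 and 4 were not separated. Of 5 hormone genes none was called and 3 were not separated; the 3 tested histone genes were not separated. The GRAS factor SCL21 had 97.8, 76.5 and 56.4 on the cortex arrays, against 57.7, 110.4 and 66.9 on the endodermis arrays, a difference of -0.01 with an interval of -0.61 to 0.60. The late embryogenesis abundant list gave 1 gene each way, AT1G54410 at 1.31 ± 0.25 and LEA4-5 at -1.12 ± 0.30; the first was 0.98 without endodermis replicate 2 and LEA4-5 was -0.94 with quantile normalization, under the threshold.

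Genes that did not separate the layers but were higher in both than in the other populations were then described. The 10 not-separated genes of largest excess of the lower ground tissue mean over the highest of the other 3 population means were taken, a choice that fixes how far they stand above the other arrays. AT3G32030, of the terpene synthase family, had 2426, 1815 and 1765 on the cortex arrays, against 1133, 2078 and 1567 on the endodermis arrays, with 3.29 to 121 on the other 9 arrays; its probe set can detect related genes. Cortex and endodermis values overlapped, at a difference of 0.35 and an interval of -0.17 to 0.88. AT5G04120, of the phosphoglycerate mutase family, had 3483, 4323 and 3678 on the cortex arrays, against 2776, 2446 and 3787 on the endodermis arrays and a difference of 0.37. AT5G36160, a tyrosine aminotransferase, had 1930.0, 1531 and 1529 on the cortex arrays, against 1761, 2152 and 1830.2 on the endodermis arrays, a difference of -0.20 with an interval of -0.61 to 0.21. AT2G22930, of the UDP-glycosyltransferase family, had 588, 818 and 651 on the cortex arrays, against 719, 573 and 801 on the endodermis arrays, a difference of -0.02. The layers overlapped in both of these genes. AT3G09540, of the pectate lyase family, differed by -0.22 (-0.67 to 0.24), and AT2G16980, of the major facilitator family, by -0.35 (-0.80 to 0.11). AT1G17300 (-0.07), AT3G22240 (0.43), AT2G20670 (-0.31) and AT5G38790 (-0.09) complete the set, and no role is given for them here. AT5G38790 had 216, 234 and 237 on the cortex arrays, against 264, 218 and 252 on the endodermis arrays, with an interval of -0.52 to 0.35, and its signal on the other 9 arrays was 1.02 to 26.3. Leaving out 1 array moved the interval past 1 in size for AT3G32030, AT5G04120, AT3G22240 and AT2G20670. In the 15-array fit it passed 1 for these and for AT5G36160, AT2G22930, AT3G09540 and AT2G16980, the widest reaching -1.86 in AT2G16980. Left without epidermis replicate 2 and stele replicate 1, that fit put AT5G36160 at -0.91 to 0.51 and AT2G22930 at -0.63 to 0.58. It put AT3G09540 at -0.72 to 0.29 and AT2G16980 at -0.79 to 0.09. AT3G22240 and AT2G20670 also lay within 1 there, while AT3G32030 and AT5G04120 did not. Only AT1G17300 and AT5G38790 stayed within 1 log2 unit in every setting run.

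**Figure D4:**
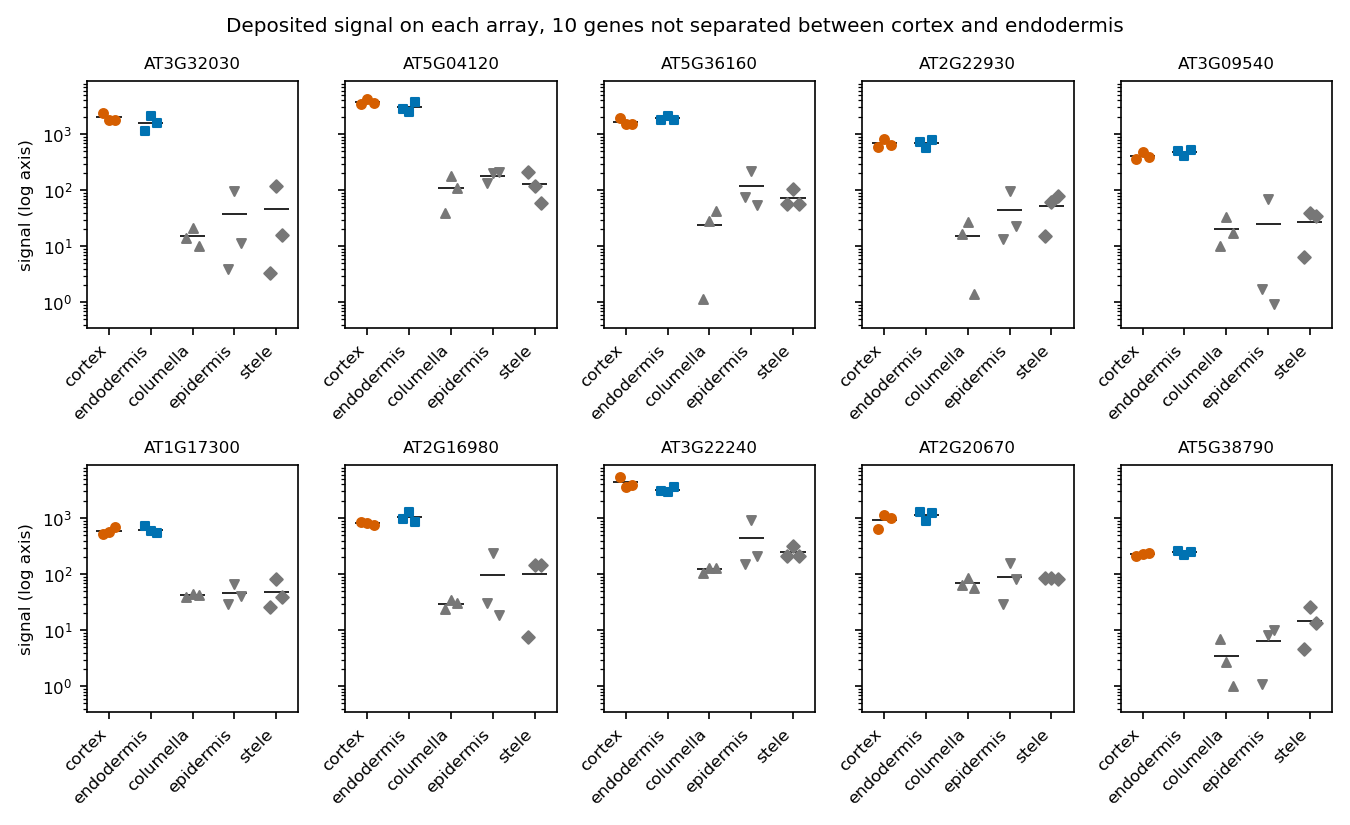
Deposited signal on a log axis for the 10 not-separated genes chosen for their excess over the other populations; each symbol is 1 array and the horizontal bar is the mean of 3 arrays. Cortex and endodermis arrays lie at like heights, and the columella, epidermis and stele arrays lie below them in each panel.

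Where the other 3 populations stood between the layers was described by the midpoint of the cortex and endodermis means on the log2(signal + 16) scale. Of the 1356 probe sets higher in the cortex, the columella mean lay above the midpoint in 338 (24.9%), the epidermis in 304 (22.4%) and the stele in 247 (18.2%), and all 3 lay below it in 826 (60.9%). Of the 2037 probe sets lower in the cortex, the columella lay above the midpoint in 1263 (62.0%), the epidermis in 1305 (64.1%) and the stele in 1437 (70.5%), and all 3 lay above it in 1081 (53.1%). The position of the other populations is a description with no test. In the deposited scaling the cortex arrays have the lowest medians, and after quantile normalization over all 15 arrays the shares with all 3 below were 63.9% for probe sets higher in the cortex and with all 3 above 49.8% for those lower. Leaving out epidermis replicate 2 and stele replicate 1, which correlated with their own populations at only 0.811 to 0.839, gave 57.8% and 48.3%. For probe sets higher in the cortex, the shares above the midpoint were then 25.7% in the epidermis and 14.5% in the stele. For those lower in the cortex they were 57.9% and 74.3%.

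**Figure D5:**
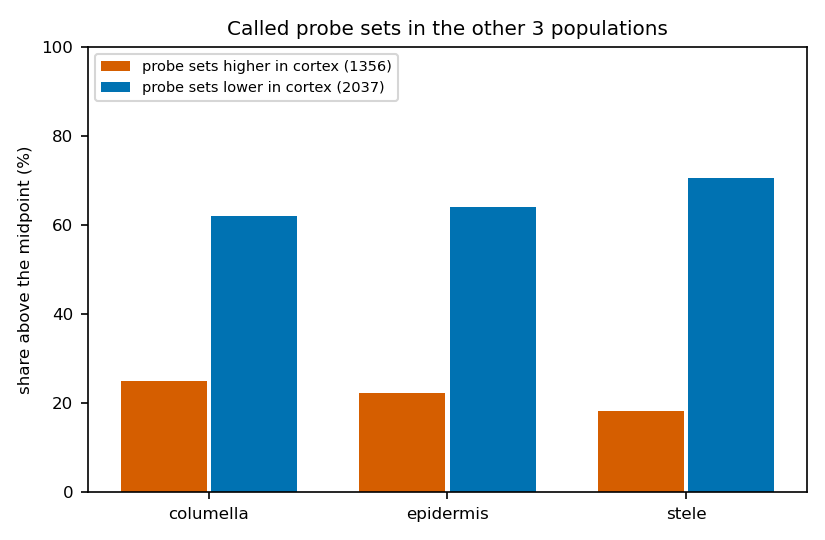
Share of called probe sets whose population mean lay above the midpoint of the cortex and endodermis means, in percent, for the columella, epidermis and stele; orange bars are the 1356 probe sets higher and blue bars the 2037 lower in the cortex. Orange bars lie at 18.2% to 24.9% and blue bars at 62.0% to 70.5%, with epidermis replicate 2 and stele replicate 1 kept.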

How the data were processed

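RNA of sorted cells was amplified in 2 cycles, labelled with biotin and hybridised to Affymetrix arrays, per the labels' protocols. The deposited values are signal intensity on a linear scale; per the submitters' processing notes the tool was MAS5. Its version and the genome build behind the array design are not given in the sources used here. Coordinates are therefore left out. The deposited intensity of every array has a trimmed mean of about 250 (250.022 to 250.029, leaving out the lowest and highest 2%). Present or absent calls did not enter; precision is limited by the 3 arrays per layer.

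Values were taken as log2(signal + 16), 64 control probe sets were left out, and a probe set had to exceed the 40th percentile of its array on at least 3 of 6 arrays, which left 14168 of 22810; one that passed through 1 layer alone had to differ. A model with a mean per layer was fitted to these 6 arrays with limma 3.58.1 (lmFit, eBayes with a variance trend) in R 4.3.3, and p-values were adjusted over all tested probe sets by the Benjamini-Hochberg method. Other steps used pandas 2.3.3 and numpy 2.4.6 under Python 3.11.15. Tested on simulated data with 14168 probe sets, the fit found 64% of 100 genes changed by log2 1.5, 97% of 100 changed by log2 3, and made 4 false calls. The simulated noise was independent among arrays and only 200 probe sets were changed. The false calls therefore do not give the error rate on the real arrays. No 2 arrays held the same values.

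Symbols were taken from the annotation of the array platform and loci from TAIR10.1: 13513 probe sets had 1 symbol, of which 13436 matched a locus, 503 had several and 8794 are unnamed here. Roles of genes listed only by locus are background knowledge. Where several probe sets named 1 gene, the one of highest mean over the 6 arrays stood for it. Genes, lists and tests were chosen with earlier results of these data known. The rule named the 12 largest called genes each way whose groups do not overlap, all testable cell type markers, up to 3 called genes each way and the not-separated gene of highest mean of each list, all sulfur genes, and 10 not-separated ground tissue genes; any other list member was named after its values were seen. Of 53 lists, 5 (AP2/ERF, ribosomal, peroxidase, NPF and aquaporin names) matched wrong or repeated genes and were left out, and 30 had a tested member. A further 5 families were added by locus after values were seen.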

Additional observations from a re-analysis of the deposited data

How the results depend on the processing

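Settings changed one at a time were quantile normalization, pseudocounts of 1 and 64, no filter and the 60th percentile filter, no variance trend, array weights, a spread estimated over all 15 arrays, a replicate block and each array left out in turn. The 15-array fit with quantile normalization changed more than 1 choice. Chosen after seeing the data were both 15-array fits run without epidermis replicate 2 and stele replicate 1, and each array left out on the 14168 probe sets of the 6-array fit. The count of probe sets higher in the cortex stayed within 1.5 times of 1356 in all of these. The count lower in the cortex was 1161 with a pseudocount of 64 and 1265 with the 60th percentile filter, which tests 9704 probe sets. The count not separated was 11828 of 22746 with no filter, which tests more dim probe sets, and 1148 with the interval held within 1.5-fold. Leaving out each array with the filter applied anew gave 1105 to 1473 higher, 1467 to 2094 lower and 5194 to 7111 not separated, but then 5 named genes had no value without 1 cortex array and 10 none without 1 endodermis array; 13 had none with the 60th percentile filter. On the 14168 probe sets, where all had values, the counts were 1263 to 1476, 1872 to 2139 and 5207 to 7180. Same-numbered arrays of the layers did not deviate together (correlations of -0.04, -0.09 and 0.06). With 3 arrays per layer this cannot tell whether same-numbered arrays shared a batch. With the replicate block 1359 were higher, 2032 lower and 6289 not separated, and all 119 named genes kept their class. Of 82 called genes named by the rule, 19 lost the call in at least 1 setting, and of 34 not separated, 20 left the bound in at least 1; none reversed. In the 15-array fit 27 of the 119 named genes lost the call or left the bound. Without epidermis replicate 2 and stele replicate 1 that number was 4. With quantile normalization as well, these numbers were 30 and 9. The cause was not tested. With 3 arrays a group, an exact permutation test cannot go below p = 0.10.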

Other observations

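Members of the smaller lists were measured too. FACT, of the suberin list, makes the ester waxes laid down with suberin. It had 53.3, 39.9 and 49.6 on the cortex arrays, against 20.4, 25.4 and 19.0 on the endodermis arrays, a difference of 0.76 ± 0.25 that was not called because its size was under 1. PYE, an iron-deficiency factor and the one testable gene of the nutrient list, differed by -0.44 with no call. The heat shock gene Hsp70-2 differed by -0.76 and was not called. Of 2 kinesin genes, KINESIN-13A was not separated at -0.13 and KINESIN-12B, a phragmoplast motor, differed by -0.75 with no call.

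Of 9 tested beta-glucosidases, PYK10 was higher and BGLU28 lower in the cortex, 2 were not separated and 5 were neither. Over all named genes 8.41% were higher, 14.4% lower and 46.4% not separated, so the called members lay near the shares of all named genes. BGLU42 had 297, 277 and 301 on the cortex arrays, against 311, 399 and 338 on the endodermis arrays, a difference of -0.24 with an interval of -0.68 to 0.20.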
